A study of Homo sapiens with 16 samples.

Results

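Chromatin accessibility in IMR90 cells, a line of human fetal lung fibroblasts, was compared between hypoxia at 0.5% oxygen and normoxia in cells whose inducible Raf kinase was inactive. The cells carried a retroviral ΔB-RAF:ER fusion, a B-RAF kinase joined to a hormone-binding domain of the estrogen receptor that 4-hydroxytamoxifen (4-OHT) switches on, so the groups share the transgene. The comparison rests on 8 of the 16 ATAC-seq libraries of the series, chosen by their titles: 4 Raf-inactivated libraries in normoxia and 4 Raf-inactivated libraries in hypoxia. The other 8, Raf-activated cells in normoxia and in hypoxia with 4 libraries each, served to test whether a change differed with the Raf state. ATAC-seq marks open chromatin by where the transposase Tn5 can cut, here in 50000 nuclei per library. All results come from 1 cell line, the time in hypoxia and the 4-OHT dose are not given in the sources used here, and the labels attach the same treatment text to every library. Whether replicates came from separate cultures is not said, so a p-value here covers no more than the scatter of these libraries, part of which may be technical.

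Cells read oxygen through prolyl hydroxylases of the EGLN family, which mark the alpha subunits of the hypoxia-inducible factors (HIF) for destruction by the VHL ubiquitin ligase while oxygen is present. In low oxygen HIF1A or EPAS1 (HIF-2 alpha) pairs with ARNT and binds a short element with the core ACGTG or GCGTG. The pair turns on genes of glycolysis, blood vessel growth, matrix crosslinking and oxygen sensing itself. The JmjC histone demethylases and the TET enzymes also use oxygen as a substrate.

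The deposited data are peak lists, 1 per library, so the measures are how many peaks were called and how many base pairs they cover, and a missing peak means one not called at that library's depth. The files give no read totals. The background coverage recovered from the authors' fold enrichments and p-values was 3.23 ± 0.240 fragments in normoxia and 4.78 ± 0.194 in hypoxia (SD, n = 4 each), without overlap, so depth or background moved with oxygen. Results are therefore also given at matched depth, after each list was thinned to the lowest background. Thinning drops whole peaks and shortens none. In bulk libraries a site open in fewer cells and a site less open in each cell cannot be told apart.

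Hypoxia left slightly fewer peaks, placed differently. The normoxia libraries held 175200 to 179646 distinct peaks and the hypoxia libraries 169287 to 174991, a difference of -4267.5 in the means (exact permutation test, two-sided, p = 0.0286, adjusted p = 0.0367 over 9 library measures). That p is the smallest that 4 against 4 libraries allow. At matched depth the difference was -9221.25. Thinning only removes peaks and cut more of the pileup in the hypoxia libraries, so a larger deficit there is partly built in. The direction turned when only peaks with a -log10 q of at least 5 were kept (4605 more in hypoxia). The exact permutation p was 0.0571 without any 1 of the normoxia libraries or without hypoxia replicate 3. The share of peaks longer than 1 kb was 4.23% ± 0.522 in normoxia and 5.39% ± 0.521 in hypoxia, and the length covered was 79.4 ± 2.23 Mb against 80.6 ± 2.06 Mb (SD, n = 4; exact permutation p = 0.486).

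The share of peaks was lower in gene bodies, and higher at gene ends and in gene-poor DNA. The share inside a protein-coding gene and away from its ends went from 49.7% ± 0.0831 to 48.3% ± 0.0717, with no overlap between the groups (SD, n = 4; exact permutation p = 0.0286). The share within 1 kb of a gene end ranged from 10.9% to 11.1% in normoxia and from 11.4% to 11.8% in hypoxia (SD 0.0747 and 0.177, n = 4). With only peaks of -log10 q of at least 5 this difference was 0.203 percentage points (exact permutation p = 0.143). The 608 gene-poor of 3043 1-Mb bins, each with at most 1 protein-coding gene, held 4.53% ± 0.00736 of peaks in normoxia and 4.95% ± 0.0437 in hypoxia. Their number rose as well, from 8025 ± 88.5 to 8543 ± 184 per library, while the total fell (SD, n = 4; exact permutation p = 0.0286). At matched depth that number was 7596 ± 38.0 in normoxia and 7773 ± 133 in hypoxia, with groups that overlap (SD, n = 4; exact permutation p = 0.0571), and the share was 4.53% to 4.54% and 4.87% to 4.96%. Chromosome X went from 2.45% ± 0.0285 to 2.67% ± 0.00623. In Raf-active cells the gene-poor share moved from 2.67% to 3.07% and the X share from 2.13% to 2.51%, whereas the share at gene ends was 11.48% in normoxia and 11.3% in hypoxia (exact permutation p = 0.143).

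**Figure D1:**
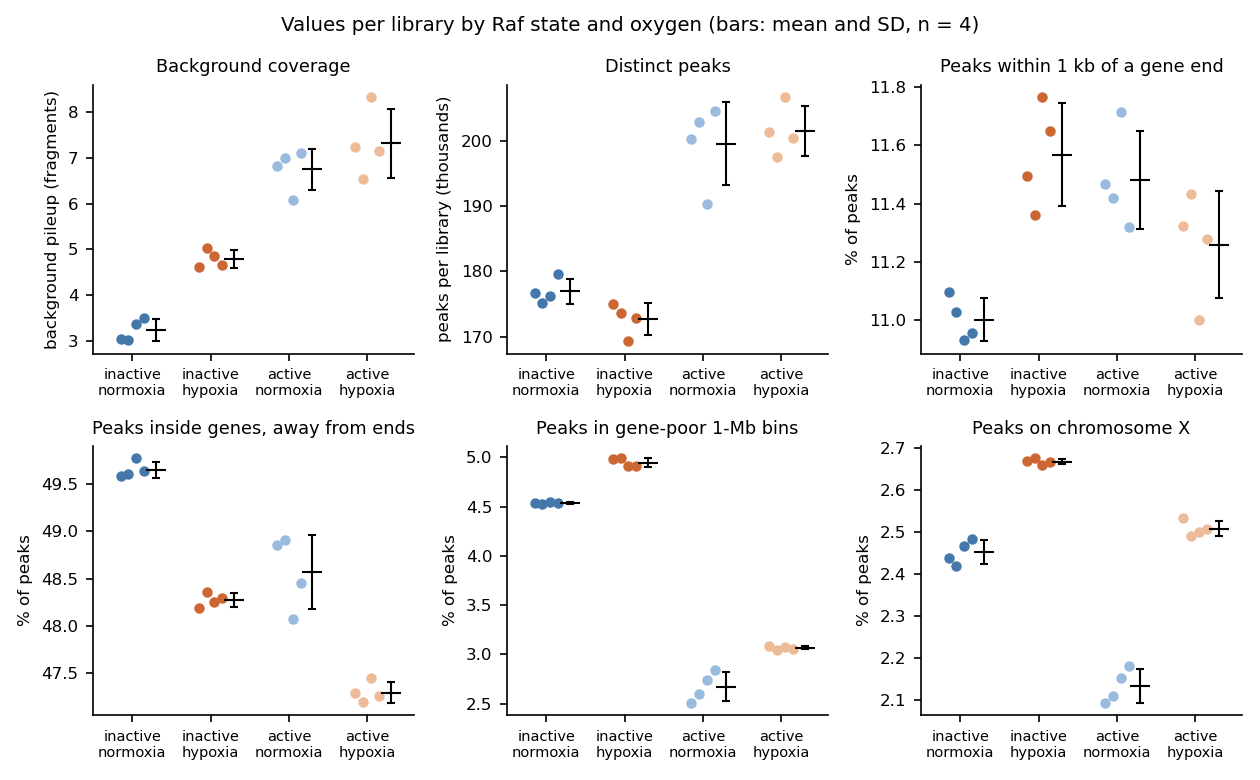
Values per library (points) with the mean and SD (n = 4) for both Raf states at both oxygen levels: background pileup in fragments, number of distinct peaks, and the percent of peaks within 1 kb of a gene end, inside genes, in gene-poor bins and on chromosome X. In Raf-inactive cells the 4 hypoxia libraries sit above the 4 normoxia libraries for background, gene ends, gene-poor bins and chromosome X, and below them for distinct peaks and gene bodies; the axes do not start at 0.

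Single genes were compared by the peaks that overlap the gene or the 10 kb to either side of it (the locus), scaled to the same total in each library and tested in limma. A locus rose or fell when its adjusted p over all 15276 tested loci was below 0.05. By this measure 952 loci rose, 6.23% of those tested, and 1031 fell, 6.75%; without the scaling 595 rose and 1432 fell. In 3503 loci (22.9%) the scaled values of the 4 hypoxia libraries did not overlap those of the 4 normoxia libraries. They include 875 of the 952 rises and 664 of the 1031 falls. Hypoxia libraries held fewer peaks, so after scaling a locus with equal numbers in every library can count as not overlapping. Among 200 loci changed 2-fold in simulated data the fit recovered 98.5%. The 200 were drawn from loci with more peaks than the filter asks, so recovery at loci of few peaks was not tested.

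The oxygen sensor EGLN3 was among the clearest rises. EGLN3, the prolyl hydroxylase that HIF itself induces (chr14:33924227-33951074), had 4, 3, 3 and 3 peaks in the normoxia libraries and 6, 7, 6 and 6 in the hypoxia libraries. The groups did not overlap, and the change was 0.84 ± 0.0897 on the log2 scale (SE; limma adjusted p = 3.78e-05). It was 1.00 at matched depth. Peaks at the EGLN3 start and 12.5 kb inside the gene were called in all 8 libraries. Sites called in 4 of 4 hypoxia and 0 of 4 normoxia libraries lay 16.9 kb inside the gene (chr14:33933974-33934408) and, beyond its end, 28.8 kb (chr14:33922068-33922529) and 33.7 kb (chr14:33917235-33917619) from the start. The base pairs covered at EGLN3 went from 1269, 1247, 1213 and 1416 to 3445, 3306, 2787 and 3106. In Raf-active cells EGLN3 had 1 peak in each normoxia library and 5, 6, 5 and 6 in hypoxia, a log2 change of 1.69, larger than in Raf-inactive cells (difference -0.85, adjusted p = 0.000387).

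Of the 19 genes of the HIF pathway, EGLN3 and HIF1A itself rose and none fell, 10.53% called beside 12.98% of all loci (limma, adjusted p below 0.05; 2 fell at an unadjusted p below 0.05). By base pairs covered 3 rose, EGLN3, EPAS1 and the partner subunit ARNT, and 2 fell, the hydroxylase EGLN2 and the ubiquitin ligase scaffold CUL2, where 11.3% of all loci rose and 11.6% fell. HIF1A (chr14:61695513-61748258) had 6, 7, 8 and 7 peaks in normoxia and 9, 9, 11 and 9 in hypoxia, a log2 change of 0.45 ± 0.127 (SE; adjusted p = 0.0279). The HIF1A call was lost at matched depth (0.32, adjusted p = 0.26) and without normoxia replicate 1, 2 or 4 or hypoxia replicate 3. EPAS1, the HIF-2 alpha subunit, had 16, 16, 14 and 12 peaks in normoxia and 16, 16, 17 and 17 in hypoxia (0.24, adjusted p = 0.0978). EGLN1, the main prolyl hydroxylase in most cells, had 12, 13, 15 and 15 peaks in normoxia against 11, 11, 13 and 12 (-0.15, adjusted p = 0.337), with groups that overlap.

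Among 74 tested HIF target loci, 9 rose and 3 fell by number of peaks, 12.2% and 4.05% beside 6.23% and 6.75% of all loci. The list's median log2 change was 0.039, and 0.00091 over all loci. The rises were CXCR4, KDR, F3, EGLN3, ANKRD37, HILPDA, ANG, NDRG1 and HMOX1; the falls were STC2, KDM4B and ADM. The 4 largest rises kept their call whichever single library was left out. ANKRD37, NDRG1, ADM and HMOX1 did not: each lost it in 5 to 7 of the 8 such fits, and STC2 in 3, without normoxia replicate 2 or hypoxia replicate 3 or 4. HILPDA, a lipid droplet protein that slows fat breakdown, had 3, 4, 4 and 4 peaks in normoxia and 5, 5, 6 and 7 in hypoxia (0.56 ± 0.102, adjusted p = 0.0022).

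The same loci looked different by base pairs. Counted as base pairs covered by peaks, 24 of the 74 HIF targets rose (32.4%) and 5 fell (6.76%), where 11.3% of all loci rose and 11.6% fell. The median log2 change was 0.096 for the list and -0.00013 for all loci. The list's loci were also better covered, with a median of 3588 base pairs against 3062, and the part of that coverage in this count was not tested. At matched depth 18 rose and 5 fell (24.3% rose, 9.54% of all loci). Thinning keeps the full length of the peaks that stay, so this does not match covered length for depth. With any single library left out 18 to 23 rose and 3 to 6 fell. With only peaks of at least 5-fold enrichment 12 rose and 7 fell. In Raf-active cells the median base pair change of the same loci was 0.024, and -0.020 over all loci.

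Among the HIF targets whose covered length rose were SLC2A3, PLIN2 and NDRG1; SLC2A3 and PLIN2 were named after their values were seen. SLC2A3, a glucose transporter, went from 1858 to 2820 base pairs across the normoxia libraries to 3770 to 4171 in hypoxia (0.68, limma adjusted p = 7.5e-05). PLIN2, which coats lipid droplets, went from 3159 to 3493 to 4860 to 5484 (0.56, adjusted p = 8.11e-06). NDRG1, a stress gene that HIF induces strongly in many cells, had 5109, 5430, 5659 and 5948 base pairs in normoxia and 8304, 8942, 8631 and 8691 in hypoxia (0.60, adjusted p = 1.64e-06). No hypoxia library overlapped a normoxia library at these 3 loci. For NDRG1 the number of peaks gave 0.38 (adjusted p = 0.0383), and -0.88 when only peaks of at least 5-fold enrichment were counted.

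At some targets fewer peaks went with more covered base pairs. VEGFA, the main growth factor for blood vessels (chr6:43770211-43786487), had 9, 9, 7 and 10 peaks in normoxia and 6, 6, 6 and 7 in hypoxia (log2 change -0.37, limma adjusted p = 0.0545). Its covered base pairs were 3895, 4060, 3588 and 4040 in normoxia and 4529, 4552, 4468 and 4350 in hypoxia (0.18, adjusted p = 0.0584). The groups did not overlap by base pairs, and neither test passed. At the VEGFA start a pair of neighbouring peaks in each normoxia library was 1 wider peak in each hypoxia library. One site 0.717 kb inside the gene (chr6:43770486-43771369) was called in 4 of 4 normoxia and 0 of 4 hypoxia libraries. The glucose transporter SLC2A1, the mitophagy receptor BNIP3 and the secreted hormone STC2 had negative changes by number of peaks (-0.06, -0.29 and -0.35) and rose by base pairs (0.21, 0.26 and 0.24; adjusted p = 0.00972, 0.011 and 0.0299).

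**Figure D2:**
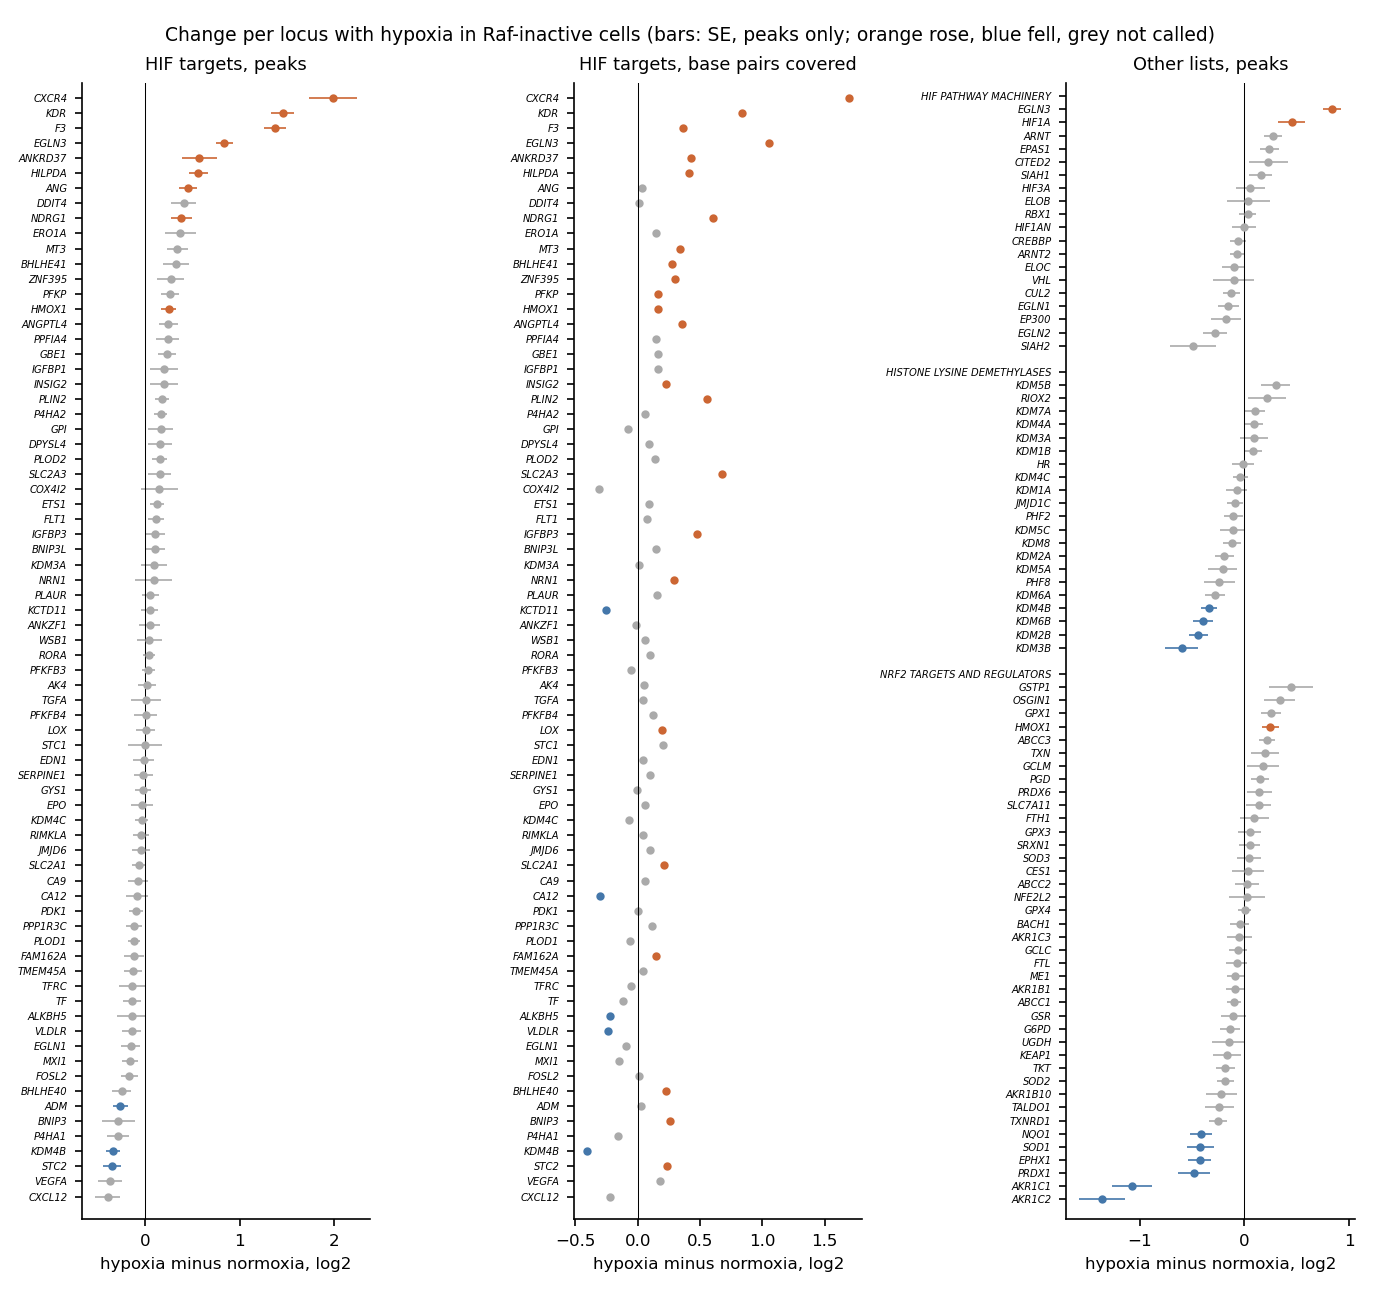
Log2 change of each tested locus with hypoxia in Raf-inactive cells: HIF targets by number of peaks (left, bars are the SE of the fit), the same loci in the same order by base pairs covered (middle), and 3 other gene lists by number of peaks (right). By base pairs 24 of 74 HIF targets are marked as risen, against 9 by number of peaks.

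CXCR4, KDR and F3, receptors of vascular and clotting biology, were 3 of the 4 largest rises. CXCR4, the receptor of the chemokine CXCL12 (chr2:136114349-136118149), had 0, 1, 1 and 2 peaks in normoxia and 6, 4, 7 and 7 in hypoxia, a log2 change of 1.98 ± 0.257 (SE; limma adjusted p = 0.000205). KDR, the main receptor of VEGFA (chr4:55078481-55125595), had 1 peak in each normoxia library and 5, 3, 4 and 5 in hypoxia (1.45 ± 0.124, adjusted p = 3.58e-06). F3, tissue factor, which starts blood clotting (chr1:94529173-94541759), had 3 peaks in each normoxia library and 7, 8, 11 and 10 in hypoxia (1.37 ± 0.117, adjusted p = 3.58e-06). By base pairs covered the log2 changes were smaller: 1.70 at CXCR4, 0.84 at KDR and 0.37 at F3 (limma adjusted p = 0.000101, 1.56e-05 and 0.00249). None of the 3 loci overlapped between oxygen levels by number of peaks, and the rule for the largest rises required this of the scaled numbers. All 3 had many peaks in Raf-active cells already in normoxia: 4, 4, 6 and 7 at CXCR4, 4, 3, 4 and 4 at KDR, and 11, 14, 10 and 12 at F3. Hypoxia gave no called change at CXCR4, KDR or F3 there (0.01, -0.04 and -0.19), and the difference between the Raf states passed its test (adjusted p = 0.00166, 5.96e-05 and 2.67e-05).

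The sites gained at these loci had different fates in Raf-active cells. At CXCR4, a site 1.17 kb before the start (chr2:136118807-136119825) was absent in 4 of 4 normoxia libraries, present in 4 of 4 hypoxia libraries and called in 8 of 8 Raf-active libraries. A second CXCR4 site, 9.02 kb after the start (chr2:136108967-136109300), was called in no Raf-active library. At KDR the gained site in the gene 9.05 kb from its start (chr4:55116354-55116739) was called in 8 of 8 Raf-active libraries, and the one at 46.4 kb (chr4:55079029-55079342) in none. F3 gained 4 sites; the one 15.4 kb from the start (chr1:94526115-94526568) was called in 8 of 8 Raf-active libraries, the other 3 in 1 to 6 of 8.

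**Figure D3:**
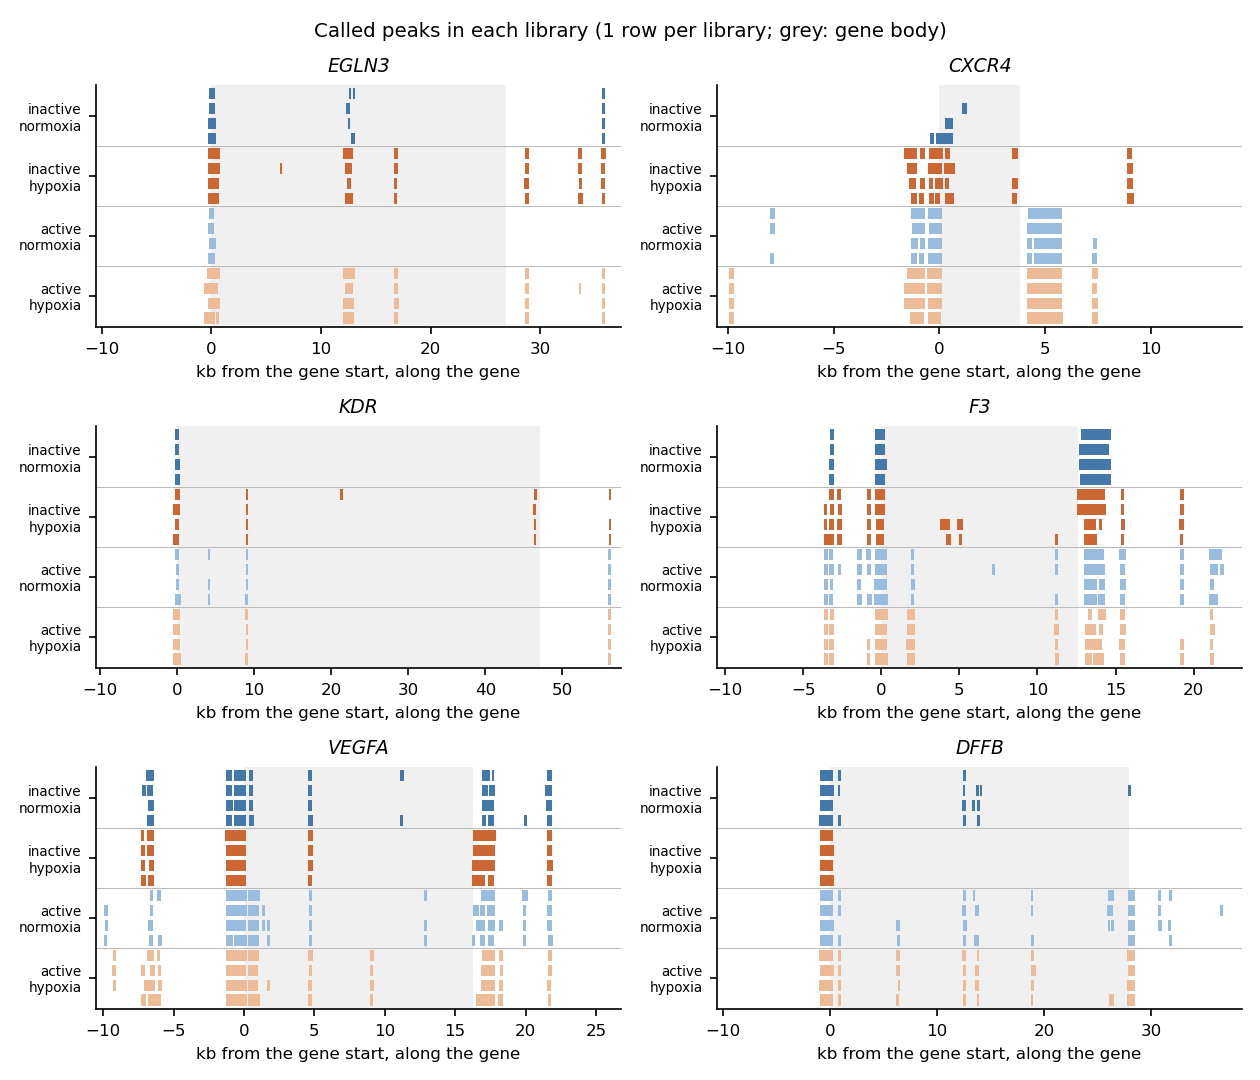
Called peaks of each library (1 row each, 4 per group) along 6 loci, with distance in kb from the gene start (from the lower-coordinate end for VEGFA and DFFB) and the gene body in grey. EGLN3, CXCR4, KDR and F3 show blocks present in the 4 Raf-inactive hypoxia rows and absent above them, DFFB shows the reverse, and VEGFA shows fewer and wider blocks in hypoxia.

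The other rises among the 12 largest were spread over matrix, metabolism, immunity and transcription. COL6A5, a collagen VI chain, had 2, 2, 3 and 1 peaks in normoxia and 7, 6, 7 and 8 in hypoxia (1.53 ± 0.179, limma adjusted p = 8.98e-05). COL6A5 rose equally in Raf-active cells (1.51; difference 0.02, adjusted p = 0.972). NAMPT, the enzyme that recycles nicotinamide to NAD, had 1, 1, 2 and 2 peaks and then 3, 4, 5 and 6. The chemokine receptor CCR2, the sugar kinase NAGK, the homeobox gene HOXC6, the zinc finger repressor ZNF91, the F-box protein FBXO4, the secretoglobin SCGB2A2 and TMEM233 rose by 1.15 to 1.29 on the log2 scale. Their loci held 0 to 5 peaks in normoxia and 2 to 8 in hypoxia, so these are changes of a few peaks. HOXC6 shares most of its peaks with its neighbour HOXC5, and its call was lost at matched depth (0.81, adjusted p = 0.066).

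The largest falls were at DFFB and AKR1C2. DFFB, the nuclease that cuts DNA in apoptosis (chr1:3857476-3885429), had 3, 6, 4 and 4 peaks in normoxia and 1 in each hypoxia library (-1.37 ± 0.121, limma adjusted p = 5.35e-06). The peak that stayed is at its start; the site 12.5 kb inside (chr1:3869805-3870254) was called in 4 of 4 normoxia, 0 of 4 hypoxia and 8 of 8 Raf-active libraries. AKR1C2, an aldo-keto reductase of steroid and drug metabolism (chr10:4987775-5018000), had 5, 4, 6 and 4 peaks in normoxia and 2, 1, 1 and 1 in hypoxia (-1.36 ± 0.218, adjusted p = 0.000907). AKR1C1 next to it shares most of those peaks. CSE1L, the nuclear exporter of importin alpha, had 4, 6, 5 and 3 peaks and then 1, 1, 1 and 2. Each of the 12 falls began from at most 6 peaks in a library.

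The remaining large falls included 2 chromatin genes. CHRAC1, a histone-fold subunit of a nucleosome-sliding complex, had 5, 3, 3 and 3 peaks in normoxia and 1 in each hypoxia library (-1.15, limma adjusted p = 0.000205). PAXIP1, a partner of the KMT2C and KMT2D methyltransferases, had 5, 5, 5 and 6 peaks and then 2, 3, 2 and 1 (-1.08, adjusted p = 0.00046). NLRC3, EPPK1, ZNF562, LOC124902325 and PM20D1 fell by 1.08 to 1.33 on the log2 scale. SULT1A2 had 1 peak in each normoxia library and 0 in each hypoxia library, a change of a single peak. It passed the filter on the mean over all 16 libraries only through the Raf-active libraries. All 24 of the largest rises and falls kept their call with any single library left out. At matched depth 8 of the 12 rises could be tested and 7 passed, and 7 of 7 testable falls passed. The others, KDR and AKR1C2 among them, had too few peaks. With only peaks of at least 5-fold enrichment 1 of the 12 rises and 0 of the 12 falls had enough peaks to be tested.

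**Figure D4:**
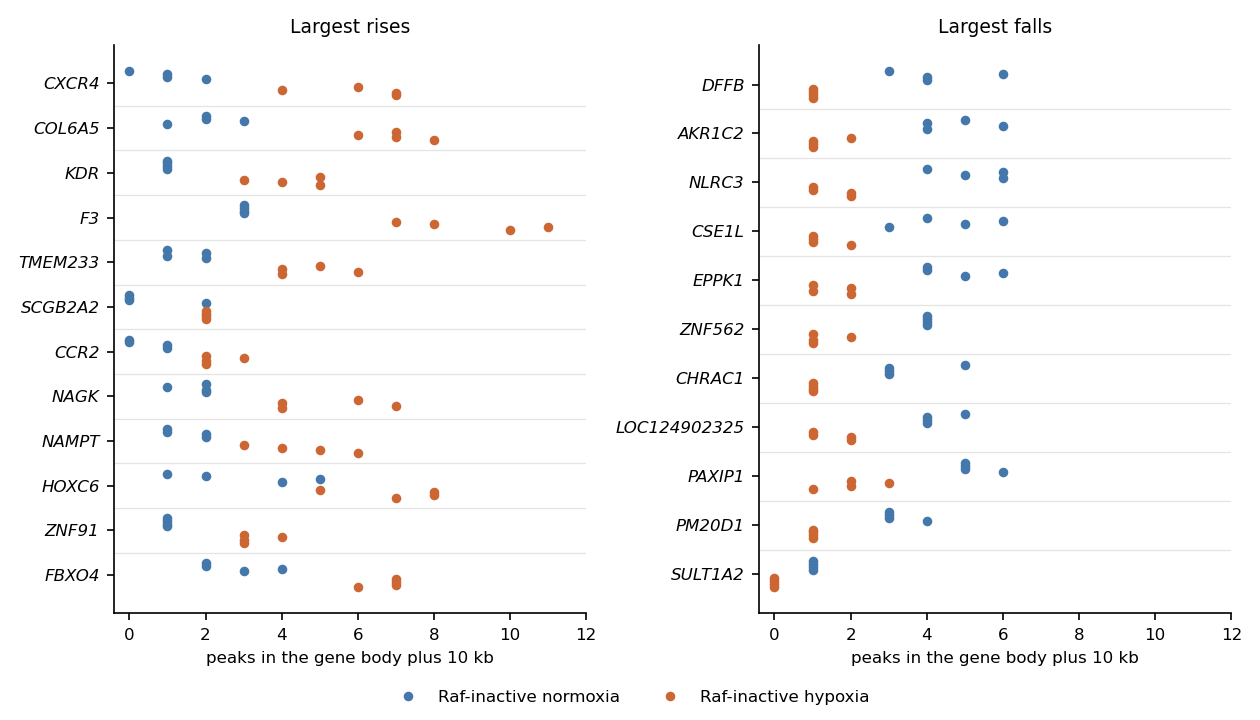
Peaks called in each Raf-inactive library at the 12 loci with the largest rises and at 11 of the 12 with the largest falls with hypoxia, normoxia and hypoxia side by side. Most of these loci hold under 10 peaks, and at CXCR4 the values go from 0 to 2 in normoxia to 4 to 7 in hypoxia.

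Chromatin-modifying genes moved in both directions. None of the 21 tested histone lysine demethylase loci rose and 4 fell, 19.0% beside 6.75% of all loci (limma, adjusted p below 0.05; 1 rose at an unadjusted p below 0.05). Those that fell were KDM2B, KDM3B, KDM4B and KDM6B, which remove methyl groups from histone H3. KDM4B had 24, 23, 22 and 27 peaks in normoxia and 17, 18, 18 and 19 in hypoxia (-0.34 ± 0.0728, adjusted p = 0.00641). KDM3A and KDM4C, 2 demethylases known as HIF targets, had no called change (0.09 and -0.04, adjusted p = 0.728 and 0.764). The median of the list was -0.11, and 0.00091 over all loci. At matched depth 0 rose and 4 fell. By base pairs 2 rose and 5 fell, where 11.3% of all loci rose and 11.6% fell. With peaks of at least 5-fold enrichment 2 of 19 rose and 3 fell, where 8.17% of all loci rose and 9.38% fell. KDM3B lost its call without normoxia replicate 3 or hypoxia replicate 3, and KDM6B turned to 0.31 with peaks of at least 5-fold enrichment.

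Among 37 histone methyltransferase and HP1 loci, 7 rose and 2 fell, 24.3% called beside 12.98% of all loci. At matched depth 5 of 35 rose and 3 fell, where 5.99% of all loci rose and 6.07% fell. By base pairs 5 rose and 5 fell, where 11.3% of all loci rose and 11.6% fell. EHMT1, a methyltransferase of histone H3 lysine 9, had 29, 28, 28 and 30 peaks in normoxia and 18, 16, 15 and 15 in hypoxia, the widest loss of this list (-0.76 ± 0.0716, limma adjusted p = 1.18e-05). In Raf-active cells EHMT1 had no called change (-0.14), and the difference passed its test (adjusted p = 0.000745). SUV39H2, another enzyme for that residue, had 5, 6, 5 and 6 peaks and then 2, 3, 3 and 4 (-0.69, adjusted p = 0.00131). Those that rose were SUV39H1, SETDB1, EZH1, KMT2E, SETD1B, DOT1L and KMT5C. KMT5C, which methylates histone H4, had 2, 3, 4 and 3 peaks and then 5, 5, 5 and 4 (0.60, adjusted p = 0.00347). EZH1 lost its call at matched depth (0.42, adjusted p = 0.076). Of 12 TET and DNA methylation loci none was called in limma, where 1 rise and 2 falls had an unadjusted p below 0.05, and by base pairs 1 fell.

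Of 40 tested antioxidant loci under NRF2 6 fell and 1 rose, beside 6.75% and 6.23% of all loci. NQO1, a quinone reductase, had 5, 5, 6 and 6 peaks in normoxia and 4, 4, 3 and 4 in hypoxia (-0.41 ± 0.106, limma adjusted p = 0.017). The others that fell were AKR1C2, AKR1C1, PRDX1, EPHX1 and SOD1, and HMOX1, which degrades heme and is also a HIF target, rose. The AKR1C genes share peaks, so they are not separate losses. At matched depth NQO1 and EPHX1 were the 2 of 36 testable loci that fell, and none rose; AKR1C1, AKR1C2 and SOD1 then had too few peaks, and PRDX1 was at -0.17 (adjusted p = 0.509). PRDX1 and SOD1 also lost their call in 7 of the 8 fits with a library left out, NQO1 without hypoxia replicate 3 and EPHX1 without normoxia replicate 4.

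Of 26 tested glycolysis loci TPI1 rose and MPC2 fell, 7.69% called beside 12.98% of all loci. By base pairs 4 rose, where 11.3% of all loci did. The MPC2 call was lost in 7 of the 8 fits with a library left out. TPI1, triosephosphate isomerase, had 5 peaks in each normoxia library and 6, 6, 6 and 7 in hypoxia (0.32, limma adjusted p = 0.00334), but -0.06 by base pairs. Mitochondrial respiration loci numbered 27, with 1 rise and 3 falls, 14.8% called, near the share of all loci. TFAM, which packages and transcribes mitochondrial DNA, had 6, 7, 6 and 5 peaks in normoxia and 4, 3, 3 and 4 in hypoxia (-0.60, adjusted p = 0.00323). The falls of SDHC and COX7A2 and the rise of SDHA were each lost in 3 to 7 of the 8 fits with a library left out. Of 23 loci of the unfolded protein response CEBPB rose and EIF2AK1 fell (8.70% called), calls lost in 4 and 2 of those fits.

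Of 44 secretory inflammatory loci 8 rose and 2 fell, 22.7% called beside 12.98% of all loci. At matched depth 5 of 43 rose and 0 fell, where 5.99% of all loci rose and 6.07% fell. By base pairs 8 rose and 3 fell, where 11.3% of all loci rose and 11.6% fell. IGFBP5, which binds insulin-like growth factors, had 6, 6, 8 and 6 peaks in normoxia and 9, 10, 15 and 16 in hypoxia (0.88 ± 0.153, limma adjusted p = 0.0016). Its neighbour IGFBP2 had 7, 6, 6 and 7 and then 8, 10, 10 and 10 (0.54, adjusted p = 0.000951), but -0.01 by base pairs. The others that rose were CXCL3, IL33, NFKBIZ, MMP10, AREG and EREG, and MMP1 and IGFBP4 fell. In Raf-active cells 2 loci of this list rose and 13 fell; the difference passed for IGFBP5, IGFBP2 and IL33 (adjusted p = 0.00728, 0.000324 and 0.0405).

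Growth factor signalling, proliferation, matrix and developmental loci changed in small numbers: over the 7 lists that follow 6.90% to 16.1% were called, beside 12.98% of all loci. Of 31 TGF-beta and Notch loci 3 rose and 2 fell, and the pair of BMP ligands moved apart. BMP4 had 3, 3, 2 and 2 peaks in normoxia and 5 in each hypoxia library (0.85 ± 0.138, limma adjusted p = 0.000968), whereas BMP2 had 3, 3, 3 and 4 and then 2, 2, 1 and 2 (-0.62, adjusted p = 0.0127). NOTCH2 went from 11, 10, 9 and 12 to 13, 13, 17 and 15 (0.49, adjusted p = 0.00319). Of 36 cell cycle loci HMGA1, HMGA2 and FOXM1 rose and E2F3 fell. E2F3, a factor that drives entry into S phase, had 13, 13, 14 and 12 peaks and then 9, 8, 8 and 9 (-0.51, adjusted p = 0.00322). FOXM1 lost its call without any 1 of the 8 libraries. Of 35 immediate early loci 2 rose and 1 fell, of 37 angiogenic loci 4 rose and 1 fell, and of 29 apoptosis loci 1 rose and 1 fell. Of 53 extracellular matrix loci 4 rose and 3 fell, and of 26 loci of lung and developmental transcription factors WT1 rose and TEAD4 fell.

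Fibroblast marker loci held overlapping numbers of peaks at both oxygen levels. The 20 fibroblast marker loci together held 223 to 229 peaks in the normoxia libraries and 225 to 232 in hypoxia. The promoters of COL6A3, PDGFRA, PDGFRB, VIM, TWIST2, FBN1, FN1 and TCF21 had a peak in 8 of 8 libraries, and those of PRRX1 and TBX4, also fibroblast markers, in none. Of the promoters of other cell types' markers, 9 of 12 for blood (PTPRC and CD3D among them), 8 of 11 for endothelium (TIE1 and ROBO4), 4 of 9 for epithelium (KRT5, KRT8, CLDN7 and ELF3), 5 of 11 for neurons and 6 of 9 for muscle had no peak in any of the 8 libraries. Those with a peak in 8 of 8 included CD14 and CD68 (blood), KDR and FLT1 (endothelium) and SFTPB and FOXA1 (epithelium), besides 5 for neurons and 3 for muscle. PDGFRB rose from 13, 11, 14 and 14 peaks to 18, 17, 17 and 16 (0.42, limma adjusted p = 0.00219), and the contractile gene TAGLN had 4, 3, 5 and 5 peaks and then 2 in each hypoxia library (-0.76, adjusted p = 0.00221), a call lost at matched depth (-0.54, adjusted p = 0.083).

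Endothelial and blood marker loci together held more peaks in hypoxia. Endothelial marker loci held 158 to 163 peaks in normoxia and 167 to 172 in hypoxia, and blood marker loci 55 to 61 and 63 to 66, both without overlap. Of 17 tested endothelial loci KDR and ERG rose (11.8%), and of 9 tested blood loci CD14 and CD68 (22.2%), beside 6.23% of all loci. The endothelial sum includes KDR, and the ERG promoter had no peak in any of the 8 libraries. Epithelial loci held 79 to 81 and 74 to 81 peaks, neuronal loci 122 to 134 and 118 to 133, and muscle loci 99 to 113 and 96 to 111. None of 15 epithelial and 8 neuronal loci was called in limma (at an unadjusted p below 0.05, 1 and 2), and of 12 muscle loci MYOD1 rose and CKM and MYH3 fell. The part of other cell types in these rises was not tested.

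Promoters were open in hypoxia much as in normoxia. A promoter here is the window from 250 bases before to 50 after the gene start, which RefSeq sequences (GRCh38.p14) gave for 15812 of 19974 genes. A peak overlapped 67.6% ± 0.461 of them in normoxia and 68.2% ± 0.474 in hypoxia (SD, n = 4; exact permutation p = 0.171). Only 39 promoters, 0.247%, were called in 4 of 4 hypoxia and 0 of 4 normoxia libraries, and 17, 0.108%, the other way. In 8 of 8 libraries 10151 were open, and in none of the 8 were 4467.

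The gained promoters include some with known ties to low oxygen or stress, named here after their values were seen. BHLHE41 is a clock repressor that HIF induces, NOD2 a sensor of bacterial wall fragments and BBC3 (PUMA) a trigger of apoptosis. The lost ones include MB, myoglobin, the oxygen store of muscle, and ZBTB32, a transcriptional repressor. BHLHE41, NOD2 and BBC3 are shown as gained promoters that hold the HIF core in its ACGTG form. ZBTB32 is the 1 lost promoter that does. CXCR4 and ANKRD37 are shown beside them: the CXCR4 promoter had a peak in 1 of 4 normoxia and 4 of 4 hypoxia libraries, and the ANKRD37 promoter, open in all 8, holds 2 cores close together. The 250 bases before each start follow, 5′ to 3′ on the gene's strand, from RefSeq (GRCh38.p14), with ACGTG on either strand in capitals, and the whole CACGTG where the cores of both strands overlap.
BHLHE41 (chr12:26125038-26125287, minus strand; normoxia 0 of 4, hypoxia 4 of 4): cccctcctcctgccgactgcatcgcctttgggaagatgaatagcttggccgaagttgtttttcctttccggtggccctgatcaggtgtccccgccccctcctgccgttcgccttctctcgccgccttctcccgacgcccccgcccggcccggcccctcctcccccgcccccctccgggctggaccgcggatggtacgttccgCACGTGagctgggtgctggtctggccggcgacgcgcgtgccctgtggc
NOD2 (chr16:50696698-50696947, plus strand; normoxia 0 of 4, hypoxia 4 of 4): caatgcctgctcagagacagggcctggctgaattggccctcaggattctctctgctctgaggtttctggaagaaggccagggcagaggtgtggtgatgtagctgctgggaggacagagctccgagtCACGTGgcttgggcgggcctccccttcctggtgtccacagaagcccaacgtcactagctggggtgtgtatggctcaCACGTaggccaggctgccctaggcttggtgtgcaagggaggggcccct
BBC3 (chr19:47232668-47232917, minus strand; normoxia 0 of 4, hypoxia 4 of 4): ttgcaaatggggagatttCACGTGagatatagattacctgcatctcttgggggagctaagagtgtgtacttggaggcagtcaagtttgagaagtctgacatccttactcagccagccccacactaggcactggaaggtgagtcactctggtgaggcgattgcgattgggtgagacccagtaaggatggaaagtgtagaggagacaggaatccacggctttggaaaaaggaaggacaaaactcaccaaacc
ZBTB32 (chr19:35704308-35704557, plus strand; normoxia 4 of 4, hypoxia 0 of 4): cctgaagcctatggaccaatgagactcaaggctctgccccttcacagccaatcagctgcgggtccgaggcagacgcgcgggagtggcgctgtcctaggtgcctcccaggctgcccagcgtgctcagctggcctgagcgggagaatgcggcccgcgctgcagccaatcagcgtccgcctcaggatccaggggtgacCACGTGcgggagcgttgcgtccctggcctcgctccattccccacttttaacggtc
ANKRD37 (chr4:185396591-185396840, plus strand; normoxia 4 of 4, hypoxia 4 of 4): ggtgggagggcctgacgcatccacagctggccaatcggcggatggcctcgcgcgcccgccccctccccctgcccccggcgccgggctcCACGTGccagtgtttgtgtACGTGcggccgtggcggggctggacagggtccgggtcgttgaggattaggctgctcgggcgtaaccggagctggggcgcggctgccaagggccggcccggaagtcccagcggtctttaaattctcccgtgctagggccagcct
CXCR4 (chr2:136118150-136118399, minus strand; normoxia 1 of 4, hypoxia 4 of 4): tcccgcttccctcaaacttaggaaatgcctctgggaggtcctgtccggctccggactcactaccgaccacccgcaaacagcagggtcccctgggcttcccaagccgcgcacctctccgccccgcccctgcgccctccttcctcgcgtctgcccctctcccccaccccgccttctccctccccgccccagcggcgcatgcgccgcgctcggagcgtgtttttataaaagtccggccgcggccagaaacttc

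In BHLHE41 ACGTG begins 48 bases before the start, in NOD2 124 and 48, in BBC3 232, in ZBTB32 55, and in ANKRD37 162 and 143. No ACGTG is in the CXCR4 window, which does hold GCGTG. The core was about as frequent in gained promoters as in all. ACGTG on either strand was in 9 of 39 gained promoter windows of 300 bases (23.1%), 1 of 17 lost (5.88%) and 23.7% of all 15812. With GCGTG counted too, the core was in 23 of 39 gained (59.0%), 3 of 17 lost (17.6%) and 55.9% of all. CACGTG, whose letters contain the core on both strands, was in 6 of 39, 1 of 17 and 8.87% of all. The AP-1 motif TGANTCA was in 3 of 39 gained (7.69%), 4 of 17 lost (23.5%) and 5.76% of all. These are counts of few promoters, given without a test.

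Across all promoters, those with ACGTG went from 75.7% ± 0.392 with a peak to 76.6% ± 0.473 (SD, n = 4), a difference of 0.874 percentage points. Those without it differed by 0.433 points. The gap between the 2 changes, 0.441 points, had an exact permutation p of 0.0286 and an adjusted p of 0.143 over the 15 motifs compared, so it did not pass. None of the other 14 motifs passed either; 3 of the 15 had that smallest unadjusted p. A match shows only that the letters are in the window. The locus of MIR210, the hypoxia-induced microRNA gene, held 3 to 5 peaks within 10 kb in every library of both groups.

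Beyond genes, 215194 merged regions had a peak in at least 1 of the 8 libraries. Of these 4474 (2.08%) were gained, with a peak in 4 of 4 hypoxia and 0 of 4 normoxia libraries, and 4756 (2.21%) were lost. Gained and lost regions differed in where they lay. Of the gained, 49.0% lay between genes, 45.4% in gene bodies and 5.65% at gene ends. Of the lost, 36.7% lay between genes and 59.8% in gene bodies, and 3.53% at gene ends. Over all regions the shares were 40.7%, 49.7% and 9.67%. Gene-poor bins held 8.67% of gained regions, 4.10% of lost and 4.86% of all, and chromosome X held 4.07%, 1.37% and 2.58%.

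The changed regions were short and weak, which is partly built into the rule. A region with no peak in a whole group tends to lie near the calling threshold, and merging peaks of more libraries gives longer regions. Their median lengths were 382 base pairs for gained and 405 for lost, and 725 for the 112909 regions called in all 8 libraries. The authors' fold enrichment of gained peaks had a median of 4.28 to 4.78 across the hypoxia libraries, where the whole lists had 6.96 to 7.28. For lost peaks it was 4.49 to 4.59 in the normoxia libraries, against 6.44 to 6.65.

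Among the 6 gained regions with the best mean rank of the authors' -log10 p, some lie near inflammatory and hypoxia-regulated genes. A site 2187 base pairs from CXCL3, a neutrophil chemokine (chr4:74033579-74034402), had an authors' fold of 8.72 to 12.3 in the 4 hypoxia libraries and was called in 8 of 8 Raf-active libraries. A site 36202 base pairs from BHLHE40, a clock repressor related to BHLHE41 (chr3:5021525-5022168), was also called in 8 of 8 Raf-active libraries. Others lay inside ZFAND5, EEIG1 and PARN and 718 base pairs from NOG, the BMP antagonist noggin (chr17:56596329-56596963). Among the 6 lost regions ranked the same way a pair lay 112050 and 168794 base pairs from BLID (chr11:122002756-122003290 and chr11:122285009-122285451), with an authors' fold of 12.01 to 19.0 and 12.4 to 16.5 in normoxia. They were called in 1 and in none of the 8 Raf-active libraries. Another lost site lay 35238 base pairs from TWIST2, a mesenchymal transcription factor (chr2:238945772-238946097), and was called in 8 of 8 Raf-active libraries.

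Bins rose at a higher rate where genes are few, although most bins that rose were not gene-poor. Of 2437 bins of 1 Mb, 345 (14.2%) rose and 263 (10.8%) fell (limma, adjusted p below 0.05). Among 182 gene-poor bins 55 rose and 1 fell, 30.2% and 0.549%, and among the other 2255 bins 290 rose and 262 fell, 12.9% and 11.6%. This difference in rate was not tested over bins. Among 100 bins of chromosome X 27 rose and 1 fell. The largest rise was at chr21:40000001-41000000, which DSCAM, a neuronal adhesion gene, fills: 9, 6, 7 and 11 peaks in normoxia and 18, 18, 16 and 17 in hypoxia (log2 change 1.05 ± 0.121, adjusted p = 5.04e-05). DSCAM's bin also rose in Raf-active cells (0.90). The bin of CXCR4 and THSD7B (chr2:136000001-137000000) had 15, 15, 18 and 22 peaks and then 33, 33, 34 and 32 (0.93), the bin of SPHKAP (chr2:228000001-229000000) changed by 0.88, and the COL11A1 and amylase bin (chr1:103000001-104000000) by 0.82. The largest falls were smaller, from -0.39 at COX10 and HS3ST3B1 (chr17:14000001-15000000) to -0.34 at NTRK2 (chr9:85000001-86000000).

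No chromosome's share of peaks passed the test adjusted over the 23 chromosomes. The X share did pass among the 9 library measures (exact permutation test, adjusted p = 0.0367). The mean share was higher in hypoxia on X, 21, 4 and 8, with ratios of hypoxia to normoxia of 1.09, 1.03, 1.03 and 1.02, and lower on 22, 17, 19, 16, 20, 9 and 10, with 0.944 to 0.983. The groups did not overlap on these 11 chromosomes. Each had the smallest exact permutation p, 0.0286, but an adjusted p of 0.0597 over 23 chromosomes. Chromosomes 17 and 19 hold 14.04 and 24.8 protein-coding genes per Mb, the 2 highest values of the 23. In Raf-active cells the ratios were 1.18 on X, 0.885 on 19 and 0.919 on 17, and 1.02 on 20.

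How far the response depended on the Raf state was tested directly. Of 15276 loci 2785 (18.2%) had a hypoxia change that differed between Raf-inactive and Raf-active cells (limma interaction, adjusted p below 0.05). Of the 952 rises 435 did, and of the 1031 falls 391. Those rises and falls were chosen by their Raf-inactive change, which is also a term of the difference, so a high share is partly built in. The comparisons use separate libraries for each Raf state. In Raf-active cells 2015 loci rose with hypoxia, 13.2% of all loci, and 2161 fell, 14.1%. Loci that rose in both numbered 215, 22.6% of the Raf-inactive and 10.7% of the Raf-active rises. Of the falls 202 were shared, 19.6% and 9.35%. Of the Raf-inactive rises 101 (10.6%) fell in Raf-active cells, and of the falls 87 (8.44%) rose there. The 952 rises had a median log2 change of 0.42 in Raf-inactive cells, which chose them, and 0.04 in Raf-active cells. Among the 24 largest changes the difference passed for 10 of 12 rises and 9 of 12 falls, COL6A5 and SCGB2A2 being the rises and CSE1L, CHRAC1 and LOC124902325 the falls for which it did not. These 24 were chosen by their Raf-inactive change too, so this count is no measure of how common such differences are. The filter on the mean over all 16 libraries adds to this. A locus with few Raf-inactive peaks, such as SULT1A2, passes it only where Raf-active peaks are many.

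The gained and lost regions, chosen in Raf-inactive cells, shifted the same way in the Raf-active libraries. The 4474 gained regions had a peak in 41.4%, 42.0%, 40.8% and 43.9% of cases in the Raf-active normoxia libraries and in 50.6%, 50.2%, 52.1% and 50.7% in hypoxia (difference 8.86 percentage points, exact permutation p = 0.0286). The 4756 lost regions had one in 32.6%, 33.4%, 31.8% and 34.5% and then in 28.4%, 28.0%, 30.5% and 28.8% (difference -4.15 points, exact permutation p = 0.0286). All regions together rose by 3.43 points, and against them the gained regions stood 5.43 points higher and the lost 7.58 points lower. At matched depth the differences were 8.15 and -4.90 points. Region by region, 235 of the 4474 gained (5.25%) were also gained in 4 of 4 against 0 of 4 Raf-active libraries, beside 2.64% of all regions. Of the 4756 lost, 110 (2.31%) were also lost there, beside 1.202% of all regions. Of gained regions 40.5%, and of lost 55.9%, had no peak in any Raf-active library, where 25.9% of all regions had none.

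**Figure D5:**
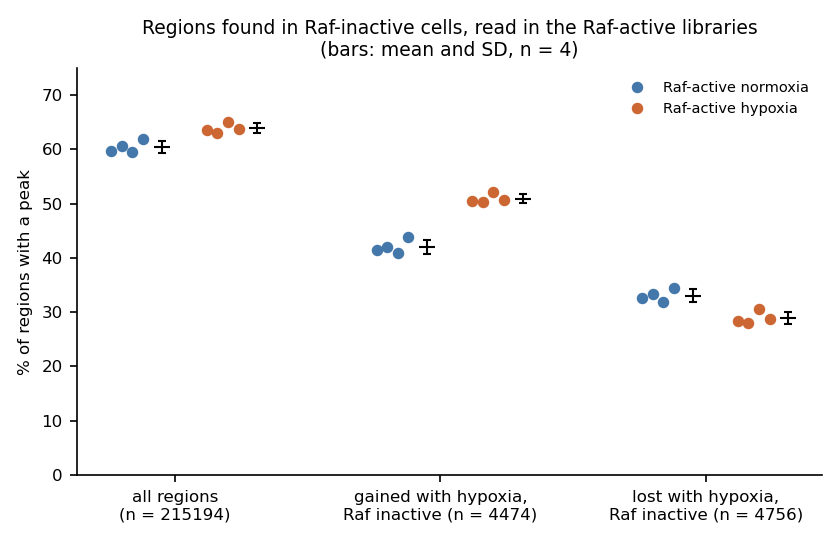
Percent of regions with a peak in each Raf-active library (points, 4 per group) for regions gained with hypoxia in Raf-inactive cells, lost in them, and for all regions called in at least 1 Raf-inactive library. Gained regions go from 40.8% to 43.9% in normoxia to 50.2% to 52.1% in hypoxia, and lost regions from 31.8% to 34.5% to 28.0% to 30.5%.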

How the data were processed

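ATAC-seq peak lists of 16 libraries (4 groups of 4, grouped by title) were used as the authors deposited them. Per the submitters' processing notes, reads were handled with FastQC, cutadapt, Bowtie2, SAMtools, Picard, deepTools and bedtools on hg38, and peaks were called with MACS2; versions, settings and read totals are not given in the sources used here. Each deposited list gives per peak a score, a fold enrichment (a ratio), a -log10 p and a -log10 q. The lists are per library, so precision rests on the 4 libraries a group.

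Distinct intervals on chromosomes 1 to 22 and X were kept. Peaks per locus (protein-coding gene plus 10 kb, RefSeq GRCh38.p14) and per 1-Mb bin were scaled to equal totals, taken as log2(scaled number + 1) and fitted in limma 3.58.1 (R 4.3.3) on all 16 libraries, with Benjamini-Hochberg adjustment, keeping loci that average 3 peaks or more (15276 of 19974) and bins that average 10 or more (2437 of 3043). Fold changes on that scale understate changes of low values. Regions are merged intervals with peaks of at least 2 of the 16 libraries, 299052 in number, and 215194 had a Raf-inactive peak. Library measures were compared by exact two-sided permutation tests in scipy 1.17.1 (Python 3.11.15). Matched depth thinned each pileup to a background of 3.01 fragments and kept a -log10 p of at least 5. Peaks that stayed kept their full length. The fit was tested on simulated data.

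Named loci are the 12 largest rises and falls without overlap (skipping neighbours that share over 50% of their peaks), every called HIF pathway, HIF target, demethylase and NRF2 gene, up to 4 called genes of each other list and 16 preset genes; genes beyond these, such as the rest of a list's called members, were named after their values were seen. Members and lists were chosen with earlier results of these data known. No genome sequence was used here, so the motif tests planned at peak summits were not run, and promoter windows were used in their place. One of the largest falls is counted in the totals but not reported here by name.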

Additional observations from a re-analysis of the deposited data

Results flagged for a closer look

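For 53 of 204 groups of 4 libraries checked, 1 library's value stood further from the others, against the group's range, than Dixon's 95% critical value for 4 values allows. The 204 cover the library measures and the named loci, and all 53 were numbers of peaks at a named locus. About 1 in 20 groups is marked this way by chance, and in small whole numbers a single peak is enough when the other 3 libraries are equal. No library was left out for it. Each value that follows is the number of peaks in that library. In normoxia replicate 1 these were CHRAC1 5, LOC124902325 5, EGLN3 4, HILPDA 3, MPC2 8, WT1 4, CD14 3 and LOX 8. In normoxia replicate 2 these were NAGK 1, COX7A2 2, HMGA1 8, FOSL1 6 and KLF6 6. In normoxia replicate 3 these were ADM 6, IGFBP5 8, MYOD1 4, SLC2A1 16 and BNIP3 6. In normoxia replicate 4 these were SCGB2A2 2, PAXIP1 6, PM20D1 4, EZH1 2, EPHX1 7, BMP2 4 and FOXM1 5. In hypoxia replicate 1 these were AKR1C2 2, NDRG1 21, HMOX1 4, MPC2 6, AKR1C1 2 and IGFBP2 8. In hypoxia replicate 2 these were CCR2 3, ZNF91 4, ZNF562 2, EGLN3 7, EPHX1 5, SDHC 4, IL33 8 and FOXM1 8. In hypoxia replicate 3 these were HIF1A 11, NQO1 3, COL6A1 10, BMP2 1 and CKM 2. In hypoxia replicate 4 these were FBXO4 6, CSE1L 2, ADM 6, TPI1 7, KMT5C 4, SOD1 2, KLF6 8, MYH3 4 and VEGFA 7.

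For 38 named loci the hypoxia change differed between Raf-inactive and Raf-active cells in limma's interaction test (adjusted p below 0.05). Only loci called in Raf-inactive cells were listed, and the change that called them is a term of the difference. A locus with few Raf-inactive peaks, such as SULT1A2, also entered the fit only through its Raf-active peaks. The values are the Raf-inactive minus the Raf-active log2 change. They were positive for CXCR4 1.97, KDR 1.49, F3 1.56, TMEM233 0.97, CCR2 1.29, NAGK 1.07, NAMPT 1.39, HOXC6 1.32, ZNF91 0.98, FBXO4 1.40, HIF1A 0.54, TPI1 0.28, KMT5C 0.51, EZH1 0.96, SDHA 0.40, CEBPB 0.72, BMP4 1.12, IGFBP5 0.94, IL33 0.83, IGFBP2 0.85, HMGA1 0.51, HMGA2 0.39, KLF6 0.61, PDGFRB 0.50, CD14 0.70, CD68 0.34 and MYOD1 0.68. They were negative for DFFB -1.21, AKR1C2 -1.62, NLRC3 -1.23, EPPK1 -1.08, ZNF562 -0.59, PAXIP1 -1.13, PM20D1 -1.14, SULT1A2 -1.005, EGLN3 -0.85, STC2 -0.57 and EHMT1 -0.62.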

How the results depend on the processing

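Of 84 called named loci, 51 kept their call with each single library left out and 54 at matched depth (17 more could be tested there), and 19 changed sign under some alternative. With only peaks of -log10 q of at least 5 there were 4605 more peaks per library in hypoxia, and with at least 5-fold enrichment 1095 more (exact permutation p = 0.4). The difference at gene ends was then 0.203 and 0.0491 percentage points (exact permutation p = 0.143 and 0.629). The median peak length differed by 18.75 base pairs at matched depth, where peaks are dropped but not shortened (exact permutation p = 0.0286). By base pairs 3500 loci were called (1727 rose, 1773 fell), of which 642 rises and 696 falls were also called by number of peaks. The difference between Raf states was then called at 4829 loci, and 932 bins were called, 418 of them falls. In the 8 Raf-inactive libraries alone 1106 loci were called (496 rose, 610 fell), with fewer libraries in the fit. Without scaling 595 loci and 218 bins rose. With 3 of 4 against at most 1 of 4 libraries, a wider rule by construction, 14397 regions and 155 promoters were gained and 16125 and 91 lost, and 35 promoters were lost with peaks of at least 5-fold enrichment.

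Some loci changed sign. With peaks of at least 5-fold enrichment the log2 changes were -0.88 for NDRG1, 0.66 for STC2, -0.14 for ANG, 0.31 for KDM6B, 0.11 for IGFBP4, -0.047 for HMGA1, -0.19 for PDGFRB, -0.034 for CD68 and 0.20 for EGLN1. By base pairs they were 0.029 for ADM, 0.24 for STC2, 0.065 for MPC2, -0.057 for TPI1, -0.013 for IGFBP2, -0.023 for FOSL1, 0.21 for SLC2A1 and 0.26 for BNIP3. With 50 kb to either side they were 0.20 for ADM, 0.064 for EPHX1, 0.058 for SOD1, -0.085 for SDHA, 0.12 for COX7A2, -0.12 for DLL1 and -0.042 for FOXM1. With peaks given to the nearest gene they were 0.099 for ADM, 0.044 for SOD1 and -0.48 for DLL1. The cause was not tested. More HIF targets rose than fell, and the share of peaks in gene-poor bins was higher in hypoxia, under each alternative run for them.

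Leaving out 1 library gave differences of -5035 to -3134 peaks, 0.30 to 1.97 Mb, 7.67 to 12.5 base pairs of median length, 0.501 to 0.636 points at gene ends and 0.398 to 0.424 points in gene-poor bins. It gave 1432 to 1679 called loci (672 to 802 rises, 760 to 892 falls; the lowest without hypoxia replicate 3), 2433 to 2677 loci with a difference between Raf states, and 468 to 516 called bins (277 to 296 rises, 191 to 224 falls). Gained regions numbered 5181 to 5580, lost regions 5169 to 6299, gained promoters 43 to 54 and lost promoters 18 to 30, more than with 8 libraries because fewer must match.

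Replicate numbers did not pair the libraries: same-numbered deviations correlated at -0.0184 to 0.00518 over loci. With the replicate block as exact sign flips of 4 differences, whose smallest p is 0.125, the differences of -4267.5 peaks, 0.568 points at gene ends and 0.412 points in gene-poor bins had p = 0.125, and in limma the replicate block kept 824 of 952 rises and 897 of 1031 falls. The planned motif tests at peak summits, with their alternatives, were not run because no genome sequence was used here. Depth is known only through the background pileup, so a peak missing from a library may lie below its threshold.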
